A study of Mus musculus with 3 samples.

Results

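The 40 genes described here act in the cell cycle and in DNA replication. They were listed by name, with earlier results of these data known, as 25 genes of the G2 and M phases and 15 genes of the S phase, among 19927 gene symbols that the deposited matrices list for mouse skin cells. Their counts were read from 3 single-cell libraries of dorsal skin at P18 (postnatal day 18), and a gene that a matrix does not list was taken as 0. The 2 control libraries came from *Vdr* flox/flox mice, and the third is labelled as *Vdr* flox/flox; Krt14cre mice (*Vdr* cKO, here the library labelled cKO), in which Cre under the *Krt14* promoter acts in epithelial cells that have used that promoter. Thus the floxed *Vdr* alleles were shared by all 3 libraries, and a control that carries Cre without floxed alleles was not analysed here. Each library pooled skin from 3 male mice, by the paper's methods, so no value can be given for a single mouse. Epidermal and hair follicle cells were released with trypsin and captured in droplets, which give all transcripts of a cell the same barcode.

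A dividing cell copies its DNA in S phase and separates the copies in M phase, with a gap, G2, in between. Genes for the replication machinery are transcribed before and during S phase, largely under E2F factors, and genes for the spindle, the kinetochore and chromosome condensation are transcribed later, largely through promoters with a CHR element and CCAAT boxes. In skin, the dividing keratinocytes sit in the *Krt14*-positive basal layer of the epidermis, in the outer root sheath and in the hair matrix, whereas *Lor*-positive granular cells have left the cycle. RNA for these genes in a pool of cells therefore depends on the number of such cells as well as on the RNA in each of them, and the pooled levels below cannot tell fewer cells from less RNA per cell.

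The promoters of both groups are shown because they carry the sequence features by which the groups are usually told apart. The RefSeq promoter table (GRCm38.p6, 250 bases before to 50 bases after a start site) held 33 of the 40 genes, 21 of the G2/M group and 12 of the S phase group. The CHR element was searched as TTTGAA, the CCAAT box as CCAAT, and the E2F site as TTTGGCGC, TTTCCCGC, TTTCGCGC or TTTGCCGC, each on both strands, and E2F letters of opposite strands can overlap. In the sequences below, written 5′ to 3′ in the direction of the gene, capitals mark any of these letters. *Cenpf*, *Top2a* and *Cdc20* are G2/M genes with a level over 2-fold above both controls in the library labelled cKO, *Nusap1* is such a gene in which none of the letters was found, and *Mcm6* and *Mcm5* are S phase genes.
*Cenpf* (chr1:189688037-189688336, minus strand): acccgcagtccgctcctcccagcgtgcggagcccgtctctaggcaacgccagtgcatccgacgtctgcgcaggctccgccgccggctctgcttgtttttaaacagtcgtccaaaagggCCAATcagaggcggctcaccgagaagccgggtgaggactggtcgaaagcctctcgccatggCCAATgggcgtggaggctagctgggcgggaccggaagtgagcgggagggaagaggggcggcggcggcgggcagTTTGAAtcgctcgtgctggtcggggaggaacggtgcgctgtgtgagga
*Top2a* (chr11:99024140-99024439, minus strand): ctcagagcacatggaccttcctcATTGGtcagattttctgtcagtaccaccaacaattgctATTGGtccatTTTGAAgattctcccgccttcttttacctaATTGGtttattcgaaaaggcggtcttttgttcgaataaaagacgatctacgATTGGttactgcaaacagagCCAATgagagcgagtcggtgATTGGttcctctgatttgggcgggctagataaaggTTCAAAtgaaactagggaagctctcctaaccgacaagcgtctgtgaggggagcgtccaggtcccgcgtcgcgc
*Cdc20* (chr4:118437294-118437593, minus strand): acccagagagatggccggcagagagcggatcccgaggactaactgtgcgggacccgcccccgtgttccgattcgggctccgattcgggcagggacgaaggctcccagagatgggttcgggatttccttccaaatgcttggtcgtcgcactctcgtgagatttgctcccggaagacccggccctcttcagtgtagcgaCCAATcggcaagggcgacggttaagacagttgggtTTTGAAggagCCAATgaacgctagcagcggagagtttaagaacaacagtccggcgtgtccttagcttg
*Nusap1* (chr2:119618048-119618347, plus strand): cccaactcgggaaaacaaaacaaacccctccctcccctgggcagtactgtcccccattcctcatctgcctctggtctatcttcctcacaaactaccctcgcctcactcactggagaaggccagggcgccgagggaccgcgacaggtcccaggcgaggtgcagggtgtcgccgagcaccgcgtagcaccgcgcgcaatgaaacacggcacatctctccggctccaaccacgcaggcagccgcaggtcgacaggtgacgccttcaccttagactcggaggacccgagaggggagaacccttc
*Mcm6* (chr1:128359656-128359955, minus strand): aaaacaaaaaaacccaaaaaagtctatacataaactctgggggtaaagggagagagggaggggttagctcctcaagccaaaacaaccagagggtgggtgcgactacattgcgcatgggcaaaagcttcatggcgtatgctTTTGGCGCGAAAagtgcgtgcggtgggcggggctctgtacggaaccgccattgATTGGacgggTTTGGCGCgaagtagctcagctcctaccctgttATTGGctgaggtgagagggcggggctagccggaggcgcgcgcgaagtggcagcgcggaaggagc
*Mcm5* (chr8:75109259-75109558, plus strand): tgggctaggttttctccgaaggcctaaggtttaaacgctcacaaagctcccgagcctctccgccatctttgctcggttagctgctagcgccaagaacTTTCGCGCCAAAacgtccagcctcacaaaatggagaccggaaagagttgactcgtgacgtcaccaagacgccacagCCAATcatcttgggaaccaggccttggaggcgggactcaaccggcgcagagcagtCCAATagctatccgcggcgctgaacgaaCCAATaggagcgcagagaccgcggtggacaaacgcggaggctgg

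The CHR letters were found in promoters of 16 of 21 G2/M genes (76.2%) and of 1 of 12 S phase genes (8.33%, *Mcm2*), against 20.2% of all 27025 genes with a promoter in the table. Within 60 bases of a start site they were found in 15 of 21 G2/M genes and in 0 of 12 S phase genes, against 6.36% of all genes. In *Cenpf* the letters began 2 bases after the start site, and in *Cdc20* 18 bases before it. The E2F letters showed the opposite pattern, in 6 of 12 S phase genes (50%: *Hells*, *Mcm3*, *Mcm5*, *Mcm6*, *Mcm7* and *Uhrf1*) and in 1 of 21 G2/M genes (*Cdk1*, 4.76%), against 2.605% of all genes. CCAAT boxes were found in 85.7% of the G2/M genes and 75.0% of the S phase genes, against 41.1% of all genes. A match of these letters is a description of the sequence. The median log2 fold given below was 1.498 for the 16 G2/M genes with CHR letters and 1.74 for the 5 without (*Birc5*, *Bub1*, *Ccnb1*, *Cenpe* and *Nusap1*).

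After barcodes with few genes or many mitochondrial counts were left out, 1480, 1658 and 2622 cells remained in control 1, control 2 and the library labelled cKO, with 18802408, 28690129 and 30954897 counts and a median of 4190, 4492.5 and 4055 counts per cell. The libraries differed in how many genes a given number of counts covered, with medians of 265, 309 and 393 genes in cells thinned to 1000 counts. An entry above 0 of the 40 genes held a mean of 15.7, 12.6 and 8.55 counts, and whether copies of 1 molecule were collapsed is not given in the sources used here. Intervals below therefore cover counting error only and are too narrow where counts are copies. Barcodes that also occur in another library numbered 84, 85 and 60 of the deposited barcodes, and the 27, 28 and 20 of them that passed as cells were kept. The label of epidermal cells was checked against *Krt10* and *Lor*, markers of differentiated epidermis, which had 35192, 32952 and 24166 CPM and 13227, 12928 and 11930 CPM, where CPM are the counts of a gene divided by the total of the library and scaled to 1e+06. Of the 40 genes, 17 overlap another annotated gene in GENCODE M21 (GRCm38), and whether reads were counted by strand is not given in the sources used here. *Vdr* itself, the gene targeted in the cKO mice, had 40.7, 35.9 and 80.8 CPM in this order, so it was not lower in the library labelled cKO. The counts are given per gene and not per exon, so the deletion itself could not be checked in them. Each control is 1 library and so is the cKO, so no test was made, and the difference between the controls is the only measure of spread.

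The G2/M genes differed more than the S phase genes. Control 1 had a summed level of 557.7 CPM (95% Poisson interval 547.1 to 568.5), control 2 of 475.7 CPM (467.8 to 483.8) and the library labelled cKO of 988.0 CPM (976.9 to 999.1). The log2 fold of that library over the mean of the controls was 0.93, with 0.23 between control 1 and control 2. The S phase genes summed to 174.0 CPM, 131.4 CPM and 234.7 CPM, a log2 fold of 0.62 beside 0.40 between the controls. Both sums were thus highest in the library labelled cKO, and the fold of the S phase sum exceeded the difference between the controls by less.

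*Hmgb2* and *Smc4* made up most of the G2/M sum in the controls. *Hmgb2* encodes a chromatin protein of the HMG box family that many non-dividing cells also express, and its level was 283.0 CPM and 275.3 CPM in the controls and 321.0 CPM in the library labelled cKO. *Smc4*, a subunit of the condensin complexes, had 101.7 CPM, 97.9 CPM and 199.5 CPM. Without these genes the G2/M sum was 173.0 CPM (167.1 to 179.1), 102.6 CPM (98.9 to 106.4) and 467.5 CPM (459.9 to 475.2), a log2 fold of 1.76 beside 0.75 between the controls. The ratio of this sum to the S phase sum was 0.99 and 0.78 in the controls and 1.99 in the library labelled cKO. The highest cell held 14.02%, 5.50% and 8.09% of the counts of these 23 genes, and the 10 highest cells held 56.8%, 38.0% and 24.9%.

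**Figure D1:**
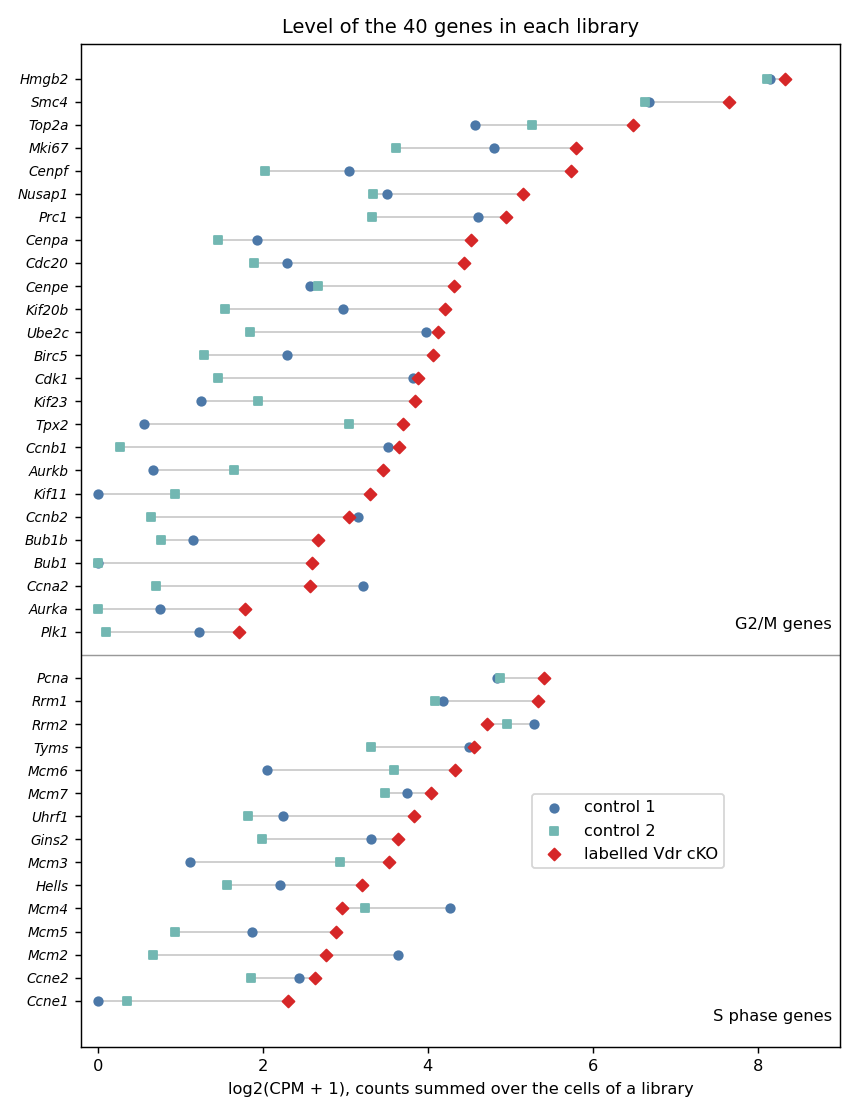
Level of each of the 40 genes as log2(CPM + 1), from counts summed over the cells of a library, with 1 point for each library and no error bars. The library labelled cKO lay highest for 35 of the 40 genes, and *Ccnb2*, *Ccna2*, *Mcm2*, *Mcm4* and *Rrm2* were the exceptions.

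The library labelled cKO was highest of the 3 for 23 of 25 G2/M genes and 12 of 15 S phase genes, as it was for 44.8% of the 8806 genes that reached 10 CPM in at least 1 library. The median log2 fold was 1.52 for all 25 G2/M genes, 0.85 for all 15 S phase genes and 0.14 for those 8806 genes. Over the members that reached 10 CPM, like the 8806 genes, it was 1.52 for the G2/M group and 0.557 for the S phase group. However, 8 of those 17 G2/M genes and 3 of those 11 S phase genes reached 10 CPM in the library labelled cKO alone. The level limit thus favoured high folds among them, and the equal value of 1.52 is no check of the median. The median of the 25 G2/M genes is the same with *Bub1*, which had no count in the controls, at its lower bound. Scaled by edgeR TMM factors, the median of the 8806 genes was -0.04 and that of the 40 genes 1.13. Of the 40 genes, 28 reached 10 CPM in at least 1 library, but 11 of the 28 did so in the library labelled cKO alone and so had to be highest there. By the rule of over 2-fold above both controls, 11 of the 28 were called, beside 7.97% of all genes, namely 9 of 17 G2/M genes and 2 of 11 S phase genes. None was called below both controls, beside 1.44% of all genes. Among the 17 genes that also reached 10 CPM in a control, 3 were called, *Top2a*, *Nusap1* and *Rrm1*, beside 3.18% of all genes with that level. Set against control 1 alone 14 of 28 members were called, beside 16% of all genes, and set against control 2 alone 19 of 26, beside 15%.

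The controls differed from each other for many of these genes, and the same rule was applied with each control in the place of the library labelled cKO. Control 2 was over 2-fold below both other libraries for 11 of the 28 genes, 8 of them G2/M genes, beside 4.97% of all genes, and above both for 0, beside 0.931%. Control 1 was below both for 3, beside 5.14% of all genes, and above both for 1, *Mcm4*, beside 2.52%. Control 1 lay above control 2 for 29 of the 40 genes. For 25 of the 40, 17 of them G2/M genes, the log2 fold was larger than the difference between the controls, both taken without sign. *Rrm2* is among the 25 with a fold below 0 (-0.42). The same held for 49.1% of the 8806 genes that reached 10 CPM, a level that 12 of the 40 did not reach.

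**Figure D2:**
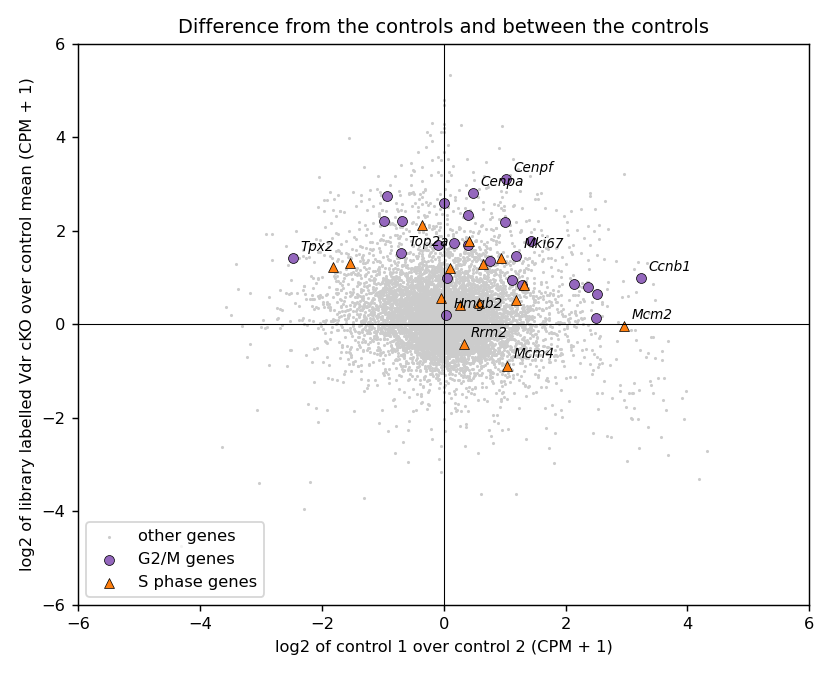
Log2 fold of the library labelled cKO over the mean of the controls (vertical axis) against the log2 ratio of control 1 to control 2 (horizontal axis), with 1 CPM added, for the 40 genes and, in grey, the other genes that reached 10 CPM. All 25 G2/M genes lay above 0 on the vertical axis, with *Cenpf* at 3.11, while *Ccnb1* and *Mcm2* lay far to the right, where control 1 exceeded control 2.

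The 3 centromere and kinetochore genes were each over 2-fold above both controls. All of them reached 10 CPM in the library labelled cKO alone and so had to be highest there. The 7.97% of all genes is thus no base rate for them. It stands for 702 of 8806 genes, but of the 8051 that reached 10 CPM in a control only 256 were called. Genes that reach the limit in the library labelled cKO alone are thus called far more often than 7.97%. *Cenpf*, a kinetochore protein made in G2, had 7.23 CPM and 3.07 CPM in the controls and 52.1 CPM in the library labelled cKO, a log2 fold of 3.11 beside 1.02 between the controls. It was counted in 12 of 1480, 16 of 1658 and 141 of 2622 cells, so the higher level came with more cells. *Cenpa*, the centromeric histone H3 variant, had 2.82 CPM, 1.74 CPM and 21.9 CPM, a log2 fold of 2.81 beside 0.48. *Cenpe*, the kinetochore motor, had 4.95 CPM, 5.37 CPM and 19.0 CPM, a log2 fold of 1.70 beside -0.10. The controls lay close to each other for *Cenpe*, with counts in 13 and 18 cells against 73 cells.

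Among the genes for chromosome structure and the spindle, *Top2a*, the topoisomerase that untangles replicated chromosomes, had 22.7 CPM, 37.4 CPM and 88.4 CPM, a log2 fold of 1.52 beside -0.70 between the controls. *Nusap1*, a spindle protein that binds microtubules, had 10.3 CPM, 9.10 CPM and 34.7 CPM, but in control 1 it was counted in 3 cells and 89.2% of its counts came from 1 of them. *Kif23* and *Kif20b*, kinesins that act in cytokinesis, had 1.38, 2.82 and 13.3 CPM and 6.86, 1.92 and 17.4 CPM. *Prc1*, which bundles midzone microtubules, had 23.4 CPM, 8.99 CPM and 29.8 CPM and was not called, with a log2 fold of 0.84 beside 1.29 between the controls. *Tpx2*, which activates Aurora A at the spindle, had 0.479 CPM, 7.22 CPM and 11.99 CPM and was also not called. *Kif11*, the motor that separates the spindle poles, had 0 CPM, 0.906 CPM and 8.82 CPM and stayed under the 10 CPM needed.

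Genes of the checkpoint, the anaphase-promoting complex and the mitotic kinases did not exceed 20.7 CPM in any library. *Cdc20*, the activator of the anaphase-promoting complex, had 3.88 CPM, 2.72 CPM and 20.7 CPM. *Birc5*, a subunit of the chromosomal passenger complex, had 3.88 CPM, 1.43 CPM and 15.8 CPM. Both genes were over 2-fold above both controls, but they reached 10 CPM in the library labelled cKO alone. *Ube2c*, the ubiquitin-conjugating enzyme of the same complex as *Cdc20*, had 14.7 CPM, 2.58 CPM and 16.5 CPM, so control 1 and the library labelled cKO were close. *Bub1*, a spindle checkpoint kinase, had no count in either control and 156 counts in 16 cells of the library labelled cKO, or 5.04 CPM, which is at least 79.8-fold higher when the floor is 3 counts over both controls together. *Bub1b*, *Aurka*, *Aurkb* and *Plk1*, the other checkpoint and mitotic kinases, did not exceed 9.98 CPM in any library and were highest in the library labelled cKO.

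The summed cyclins and *Cdk1* were as high or nearly as high in control 1 as in the library labelled cKO. *Ccnb1*, *Ccnb2* and *Ccna2*, the cyclins that drive entry into mitosis and passage through S and G2, summed to 26.5 CPM (24.26 to 28.97) and 1.39 CPM (0.996 to 1.90) in the controls and to 23.7 CPM (22.03 to 25.49) in the library labelled cKO. Control 2 stood far below both other libraries. The 10 highest cells held 81.6%, 97.5% and 54.2% of these counts. *Cdk1*, the kinase partner of these cyclins, had 13.1 CPM in control 1 from 5 cells, with 76.8% of the counts in 1 cell, 1.74 CPM in control 2 from 13 cells and 13.7 CPM from 71 cells. With each gene counted at most 1 time in a cell, the log2 fold of *Cdk1* was 1.67 in place of 0.81, beside a median of 1.43 for the G2/M genes. *Mki67*, the proliferation marker that coats mitotic chromosomes, had 26.9 CPM, 11.3 CPM and 54.6 CPM in 24, 25 and 169 cells, a log2 fold of 1.47 beside 1.18 between the controls.

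The S phase genes were closer to the controls. The 6 *Mcm* genes, which encode the replicative helicase, summed to 49.0 CPM (45.9 to 52.3), 37.8 CPM (35.5 to 40.1) and 64.1 CPM (61.3 to 66.9), a log2 fold of 0.55 beside 0.37 between the controls. *Mcm6* had 3.14, 11.0 and 19.1 CPM and *Mcm3* 1.17, 6.66 and 10.6 CPM, with control 1 lowest in both. *Mcm4* had 18.2, 8.40 and 6.75 CPM and *Mcm2* 11.4, 0.593 and 5.82 CPM, so the members of this complex did not share an order of the libraries. *Mcm7* (12.4, 10.2 and 15.5 CPM) and *Mcm5* (2.66, 0.906 and 6.396 CPM) were highest in the library labelled cKO.

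*Pcna*, the sliding clamp of the DNA polymerases, had 27.5 CPM, 28.4 CPM and 41.6 CPM, a log2 fold of 0.56 beside -0.04 between the controls. The subunits of ribonucleotide reductase differed from each other, since *Rrm1* had 17.2, 15.96 and 39.3 CPM and *Rrm2* 38.0, 30.05 and 25.3 CPM. *Rrm1* was counted in 31, 32 and 171 cells and *Rrm2* in 44, 82 and 117 cells. *Uhrf1*, which maintains DNA methylation at replication forks, had 3.72, 2.54 and 13.2 CPM and was called with *Rrm1*. However, it reached 10 CPM in the library labelled cKO alone. Of its counts in control 1, 82.9% came from 1 cell. Its log2 fold was -0.23 when CPM was averaged over cells. *Tyms*, which makes thymidylate, had 21.6, 8.96 and 22.5 CPM. The other S phase genes, *Gins2*, *Hells*, *Ccne1* and *Ccne2*, stayed at or under 11.5 CPM in every library and were highest in the library labelled cKO.

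To set the libraries side by side at equal depth, each cell was thinned to 1000 counts, and the share of cells with a count was taken for each gene. In the library labelled cKO 1000 counts covered more genes, so shares of a gene are read beside the same measure over all genes. *Top2a* was counted in 1.84% (95% Clopper-Pearson interval 1.22 to 2.67), 2.13% (1.48 to 2.96) and 5.35% (4.51 to 6.29) of cells, and *Mki67* in 0.887% (0.473 to 1.51), 0.814% (0.434 to 1.39) and 2.97% (2.34 to 3.70). For *Mki67* the controls agreed within their intervals, unlike in CPM. The interval of the library labelled cKO lay above those of both controls for 10 genes, all of them G2/M genes: *Mki67*, *Top2a*, *Cenpf*, *Kif20b*, *Tpx2*, *Cenpa*, *Nusap1*, *Prc1*, *Hmgb2* and *Smc4*. These are 10 of the 28 members that reached 10 CPM, beside 14.5% of all genes. Of the 28, 11 reached it in the library labelled cKO alone. For *Pcna*, the most widely counted S phase gene, the shares were 1.30% (0.782 to 2.02), 1.88% (1.27 to 2.67) and 2.65% (2.07 to 3.35), which overlapped.

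The share was above both controls for 37 of the 40 genes and for 70.3% of the 8806 genes that reached 10 CPM, a level that 12 of the 40 did not reach. By the 2-fold rule on this share, 12 of the 28 genes were called above both controls, beside 11.4% of all genes, 11 of them G2/M genes and 1 an S phase gene. When 200 detected genes were drawn from each cell instead, which lowered the median ratio of shares over all genes from 1.40 to 1.10, 5 of the 28 were called, all G2/M genes, beside 5.62% of all genes. *Mki67* then stood at 0.946%, 0.422% and 1.41% and *Cenpf* at 0.338%, 0.543% and 1.68%. When each gene was counted at most 1 time in a cell and scaled to all such detections, 12 of the 28 were called, 11 of them G2/M genes, beside 6.33% of all genes. Each of these counts is out of the 28 genes, of which 11 reached 10 CPM in the library labelled cKO alone. These measures were not counted for the other 17 alone.

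Members were then counted within single cells. Cells with 3 or more of the 40 genes among 1000 counts numbered 8 of 1466 (0.546%, 0.236 to 1.07) in control 1, 16 of 1597 (1.00%, 0.574 to 1.62) in control 2 and 141 of 2562 (5.50%, 4.65 to 6.46) in the library labelled cKO. With 200 genes drawn from each cell the shares were 0.405%, 0.422% and 1.75% (1.29 to 2.33). This count has no counterpart over all genes. Both depths placed the library labelled cKO above the intervals of both controls, by different factors. At most 6, 9 and 11 members were counted in a cell.

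**Figure D3:**
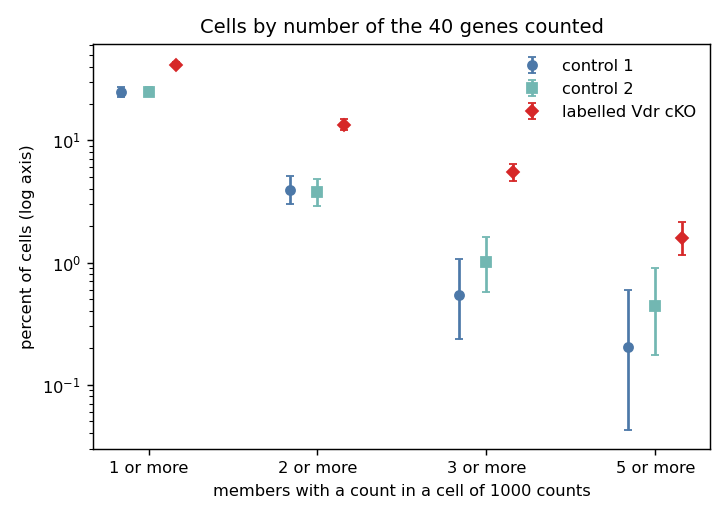
Percent of cells, on a log axis, in which at least 1, 2, 3 or 5 of the 40 genes had a count after thinning to 1000 counts, for the 3 libraries with exact 95% binomial intervals. With 3 or more genes, the library labelled cKO stood at 5.50% and the controls at 0.546% and 1.00%.

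Genes of the G2/M group were counted together in cells more often than the product of their shares, and G2/M and S phase genes less so. For the pairs of G2/M genes other than *Hmgb2* and *Smc4*, joint detections were summed, with a cell tallied anew for each pair it holds. They numbered 32, 88 and 451, which is 7.60, 23.1 and 5.47 times the product of the shares. These are not numbers of cells, since any of these genes was counted in only 98, 82 and 441 cells. A cell with several of the genes adds several pairs, and the part of such cells in the ratios was not tested. For pairs of a G2/M and an S phase gene the ratio was 1.37, 2.44 and 1.87, and for pairs of S phase genes 1.63, 1.73 and 1.91. In the library labelled cKO, *Mki67* and *Cenpf* shared 17 cells where the product of their shares gives 2.31, and *Mki67* and *Top2a* shared 18 where it gives 4.06. Cells with 3 or more members covered a median of 271.5, 351.5 and 449 genes per 1000 counts, the others 265, 307 and 391, and the part of this in the ratios was not tested.

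Cells with 3 or more members held more counts before thinning than the others, with medians of 9586.5, 7761.5 and 7179 counts against 4229, 4844 and 4106, and doublets were not removed. *Krt14* and *Lor* were both counted in 53.2% of those cells and 48.1% of the others in the library labelled cKO. The level of *Lor*, the granular layer marker, was 0.158, 0.211 and 0.454 times that in the other cells, and that of *Krt10*, the spinous keratin, 0.203, 0.394 and 0.756 times. The basal keratin *Krt5* was 0.843 times as high in control 1, where there were 8 cells, and 6.93 and 1.68 times as high in control 2 and the library labelled cKO. *Krt14* was 0.372, 7.26 and 1.255 times as high in the same order. The summed basal keratinocyte list was 2.33 and 3.93 times as high in the controls, with 3 and 7 of its 10 genes higher. It was 1.36 times as high in the library labelled cKO, with 10 of 10 genes higher. Genes of the inner root sheath list were counted at 53.6 CPM in those cells and 255.8 CPM in the others of that library.

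The same cells of the library labelled cKO also held more of the antigen-presenting list, at 1908 CPM against 477.3 CPM, with 8 of its 9 genes higher. *Cd74*, the MHC class II invariant chain, was counted in 21 of the 141 cells and *H2-Ab1* in 19, at 528.1 CPM against 49.8 CPM. Cells with counts of at least 2 of the MHC class II genes *Cd74*, *H2-Ab1*, *H2-Aa* and *H2-Eb1* numbered 29, 52 and 93, and 0, 2 and 11 of them had 3 or more members. They held 1.17%, 10.6% and 7.30% of the counts of the 23 G2/M genes. Without these cells, a choice made after seeing the data, the G2/M sum had a log2 fold of 0.98 and 13 members were called. The share of all genes called without these cells is not given here. The T cell list stood at 1808 CPM in the 8 cells of control 1 against 167.3 CPM in the others (10.8 times, 5 of 11 genes higher), at 16.01 against 102.8 CPM in control 2 (0.156 times, 0 of 11) and at 372.5 against 205.9 CPM in the library labelled cKO (1.81 times, 10 of 11).

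Genes that are no members but had the highest minimum over the 3 libraries of the ratio between those cells and the others were *Dynll2*, *Mt2*, *Opa3*, *Nfia*, *Dnajc9*, *Ptn*, *Tubb5*, *Hmgb1*, *Anp32b* and *Zfp598*. *Tubb5*, a beta tubulin, had 352.7 against 148.4, 357.6 against 93.5 and 604.1 against 174.7 CPM, from 3, 8 and 68 cells. *Hmgb1*, a paralog of *Hmgb2*, had 1664 against 360.0, 2018 against 413.8 and 1045 against 446.3 CPM. For *Dynll2*, *Opa3*, *Dnajc9*, *Ptn* and *Zfp598* the controls rested on 1 to 3 cells, and for *Mt2* and *Nfia* control 1 rested on 1 cell. These genes were ranked in the same cells that are described, so their ratios are a description.

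To ask where in the epidermis the genes were counted, cells with at least 2 *Krt14* counts of 1000 were taken as *Krt14*-high, and cells with at least 30 *Lor* counts as *Lor*-high, which are ranges of counts and not cell types. *Krt14*-high cells numbered 295 (20.1%), 251 (15.7%) and 1042 (40.7%). Near the limit, 132, 146 and 472 cells had exactly 1 *Krt14* count and 79, 77 and 277 had exactly 2. The basal keratinocyte list summed to 5053, 3591 and 13642 CPM, with 7 of its 10 genes over 2-fold above both controls, beside 7.97% of all genes. The part of this difference in the pooled levels was not tested as such, and levels within each class are given next.

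Within each library the summed level of the G2/M genes was higher in *Krt14*-high cells than in the others, while the median over the genes was not in control 1. The sum was 780.0 CPM against 524.0 CPM in control 1 (ratio 1.49, 1.42 to 1.56), 646.3 against 452.5 CPM in control 2 (1.428, 1.363 to 1.496) and 1326 against 764.9 CPM in the library labelled cKO (1.73, 1.69 to 1.77). Over all genes the median log2 ratio between the classes was -0.19, -0.08 and 0.12, and over the G2/M genes it was -0.19, 0.68 and 1.06. The S phase genes gave ratios of 3.87 (3.602 to 4.16), 1.46 (1.34 to 1.60) and 1.46 (1.40 to 1.53), with median log2 ratios over the genes of 1.80, 0.32 and 0.47. With each gene counted at most 1 time in a cell, the log2 ratio of the S phase sum was 0.37 in control 1 in place of 1.95, 0.33 in control 2 in place of 0.55 and 0.38 in the library labelled cKO in place of 0.55. Of the counts in control 1, 68.7% of those of *Mcm4* and 42.6% of those of *Tyms* came from 1 cell each. In control 1 the S phase ratio from all counts was the largest of the 3, with *Tyms* at 121.7 CPM against 6.26 CPM.

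Gene by gene, 24 of 25 G2/M genes were higher in *Krt14*-high cells in the library labelled cKO, 16 of 22 with counts in control 2 and 9 of 23 in control 1, beside 59.3%, 47.2% and 44.0% of all genes in the same order. *Mki67*, *Top2a*, *Birc5*, *Ube2c*, *Ccna2*, *Cenpe*, *Hmgb2* and *Smc4* were higher there in all 3 libraries by pooled counts. The share of all genes for which this held is not given here. The interval of the ratio included equal levels for *Birc5*, *Ube2c*, *Cenpe* and *Hmgb2* in control 1 and for *Top2a* in control 2. By share of cells, *Mki67* and *Cenpe* were lower there in control 1, *Smc4* in control 2 and *Birc5* in the library labelled cKO. *Mki67* had 62.4 against 21.4, 19.3 against 10.2 and 86.3 against 33.7 CPM. Of the S phase genes, 9 of 14, 9 of 15 and 12 of 15 were higher in control 1, control 2 and the library labelled cKO. *Mcm5*, *Tyms* and *Ccne2* were higher in all 3, but for *Mcm5* and *Ccne2* the interval in the library labelled cKO included equal levels. *Rrm2* was lower in *Krt14*-high cells in all 3, at 14.8 against 41.6, 20.5 against 31.3 and 18.01 against 30.1 CPM. *Cenpf*, the gene with the highest fold, was higher in *Krt14*-high cells of the library labelled cKO (76.0 against 36.6 CPM) and not of the controls (1.20 against 8.16 and 2.41 against 3.12 CPM).

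**Figure D4:**
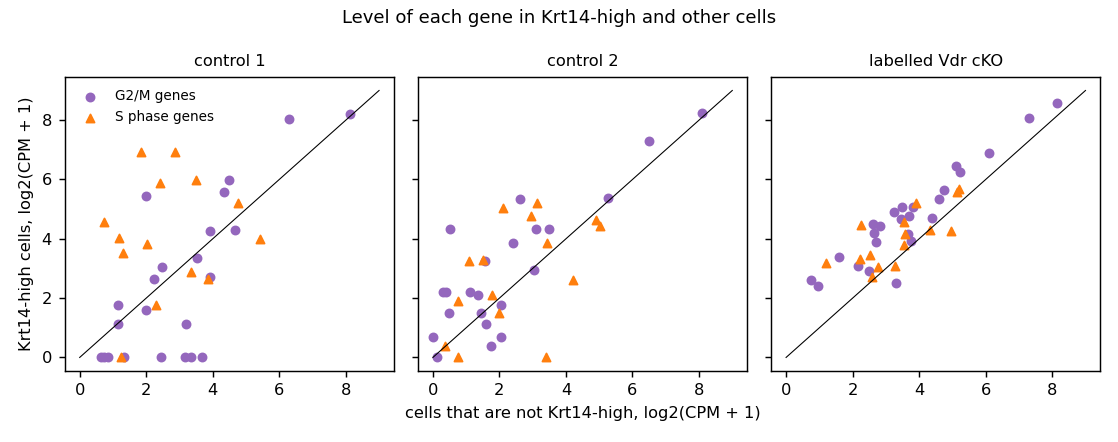
Level of each gene as log2(CPM + 1) in *Krt14*-high cells (vertical axis) against cells that are not *Krt14*-high (horizontal axis), in 1 panel for each library, with a line where both are equal; genes without a count in a library are left out. In the library labelled cKO, 24 of 25 G2/M genes lay above the line, and 9 of 23 did in control 1.

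The difference between libraries was also present within each class. The 23 G2/M genes other than *Hmgb2* and *Smc4* summed to 222.5, 188.3 and 679.5 CPM in *Krt14*-high cells, 3.31 times the mean of the controls, and to 165.5, 90.3 and 326.9 CPM in the other cells, 2.56 times that mean. In *Lor*-high cells, which should lack these transcripts, they summed to 40.2, 63.0 and 162.4 CPM, 3.15 times the mean of the controls. The factor in the class with the lowest level was thus near that in the class with the highest. In *Lor*-high cells it rested on few cells, however, with a count of these genes after thinning in 4, 4 and 17 cells. The share of cells with a count of any of these genes was 7.12%, 9.16% and 18.8% in *Krt14*-high cells. In the 137, 170 and 175 *Lor*-high cells it was 2.92% (0.801 to 7.31), 2.35% (0.645 to 5.92) and 9.71% (5.76 to 15.1), with overlapping intervals. The shares of the library labelled cKO are 2.31 and 3.68 times the mean of the controls. The median over single genes was 1.445 and 1.41 times in the same classes. That median is another measure than the share for any of 23 genes, so these ratios are not directly comparable. The source of these counts in *Lor*-high cells was not tested. The classes also differed in make-up between libraries. *Lor*-high cells held 353.1, 354.0 and 1212 CPM of *Krt14*, and 26, 20 and 52 of them were also *Krt14*-high. The cells that were not *Krt14*-high held 184.2, 187.2 and 760.0 CPM of *Krt14*. A factor within a class thus does not hold the make-up of the cells fixed.

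*Hmgb2* and *Smc4* were counted in like shares of both marker classes in the controls, although their summed level in *Krt14*-high cells was 1.555 times that in the other cells in control 1, 1.264 times in control 2 and 1.475 times in the library labelled cKO. A count of either gene was found in 15.9% of *Krt14*-high and 14.6% of *Lor*-high cells in control 1, in 14.7% and 13.5% in control 2 and in 26.9% and 16% in the library labelled cKO. The S phase genes were counted in 10.2% and 9.49% of these classes in control 1, in 10.8% and 5.29% in control 2 and in 13.7% and 9.71% in the library labelled cKO. In *Krt14*-high cells the S phase sum of the library labelled cKO, 290.4 CPM, lay between the 487.4 CPM of control 1 and the 182.6 CPM of control 2.

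**Figure D5:**
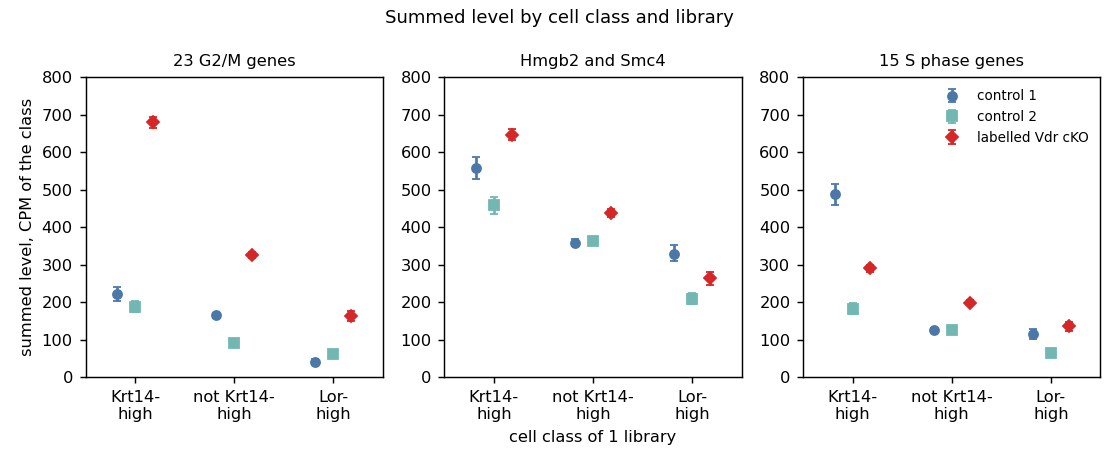
Summed level in CPM of the class for 23 G2/M genes, for *Hmgb2* and *Smc4*, and for 15 S phase genes in *Krt14*-high cells, all other cells and *Lor*-high cells (a marker class that overlaps both) of the 3 libraries, with exact 95% Poisson intervals that cover counting error only. The 23 G2/M genes were highest in the library labelled cKO in every class, from 162.4 CPM in *Lor*-high to 679.5 CPM in *Krt14*-high cells.

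Cells with 3 or more members made up 0 of 295 *Krt14*-high cells in control 1, which allows a share of up to 1.02% by the floor of 3 cells, 8 of 251 (3.19%, 1.39 to 6.18) in control 2 and 73 of 1042 (7.01%) in the library labelled cKO. Among the other cells they made up 0.683%, 0.594% and 4.47%. *Lor*-high cells held 0, 1 and 3 of them. Of the 141 cells of the library labelled cKO, 68 were not *Krt14*-high.

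Other genes of the cycle were taken from lists chosen with earlier results of these data known. Of 44 other G2/M genes, 29 reached 10 CPM, 8 were over 2-fold above both controls and 0 below, beside 7.97% and 1.44% of all genes, with a median log2 fold of 0.65 over the genes that reached 10 CPM. Their summed level was 2386, 2464 and 2348 CPM, lowest in the library labelled cKO, unlike that of the 25 members. A large part of this sum came from *Tubb4b* (915.8, 928.7 and 726.8 CPM) and *Arl6ip1* (474.4, 493.8 and 413.2 CPM). Both were lowest in that library, whereas the median log2 fold over the genes was above 0. *Tmpo*, a lamina-associated protein, had 18.9, 23.04 and 65.5 CPM, *Cdca3*, a trigger of mitotic entry, 6.43, 2.41 and 17.02 CPM, and *Anln*, the cleavage furrow protein anillin, 1.17, 3.49 and 19.1 CPM. Of 39 other S phase genes, 20 reached 10 CPM, 4 were above both controls and 0 below (median log2 fold 0.38), with a summed level of 490.6, 522.4 and 635.4 CPM, among them the licensing inhibitor *Gmnn* (6.54, 7.77 and 16.7 CPM), the dUTPase *Dut* (4.84, 2.23 and 13.99 CPM) and the thymidine kinase *Tk1* (4.52, 2.23 and 11.1 CPM). Of 22 G1 genes and regulators, 15 reached 10 CPM and 1 was above both controls, the G1 cyclin *Ccnd2* (96.0, 83.4 and 280.6 CPM), and the summed level was 563.1, 446.8 and 870.4 CPM. Of 12 inhibitors of the cycle, 10 reached 10 CPM and 1 was above both, the G2 kinase *Wee1* (7.23, 3.42 and 20.6 CPM). The summed level of the inhibitors was 2746, 2520 and 2142 CPM, most of it from *Cdkn1a* alone (2300, 2053 and 1485 CPM). Over the inhibitors that reached 10 CPM, the median log2 fold was 0.585. For the G1 genes and the inhibitors the share called is close to that of all genes. Among the called genes of these lists, only *Tmpo* and *Ccnd2* reached 10 CPM in a control. The others did so in the library labelled cKO alone and so had to be highest there.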

How the data were processed

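Single-cell RNA of P18 dorsal skin was measured in 2 control libraries and 1 library labelled *Vdr* cKO, grouped by their titles. The values are raw counts per gene and cell barcode, as the authors deposited them. The submitters' processing notes name mm10. The aligner, the annotation and the rule for collapsing copies are not given in the sources used here. The paper names Seurat for the analysis that followed.

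Cells are barcodes with 200 or more genes and no more than 20% of counts mitochondrial, no doublet caller was run, and 14, 61 and 60 cells under 1000 counts were left out of thinned values. Counts were summed over cells and scaled to CPM, and log2 folds had 1 CPM added. A gene was called when it reached 10 CPM in at least 1 library and lay over 2-fold above or below both others. Intervals are 95% exact Poisson or Clopper-Pearson. The rule for naming took all 40 members, at most 3 called genes of each further list and direction, the 10 genes with the highest minimum ratio in cells with 3 or more members among those with at least 20 CPM in each library, and *Krt14*, *Krt5*, *Krt10*, *Lor* and *Vdr*. Genes outside this rule (MHC class II genes, *Tubb4b*, *Arl6ip1* and *Cdkn1a*) were named after their values were seen. Members and lists were chosen with earlier results of these data known. With 1 cKO library and cells that are no replicates, no p-value was computed. Alternatives were other cell limits, edgeR 4.0.16 and DESeq2 1.42.0 scaling, other totals, level and fold limits, depths, *Krt14* limits and leaving out a control. Python 3.11.15, numpy 2.4.6, scipy 1.17.1, pandas 2.3.3, matplotlib 3.10.9 and R 4.3.3 were used. The promoters came from RefSeq, and the motifs are the letters given with them above.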

Additional observations from a re-analysis of the deposited data

How the results depend on the processing

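No paired analysis was possible, because the labels name no pairing of a control library with the library labelled cKO. The 6 main results were the log2 folds of both sums, the number of called members, the difference in cells with 3 or more members and the log2 ratios of *Krt14*-high to other cells. All alternatives kept their direction, but the number of called members has no opposite direction. Of 67 values, 52 stayed within a limit. It was a fixed factor for the number of called members. For the folds and the cells with 3 or more members it was the standard deviation of the controls. For the *Krt14* ratios it was that of all 3 libraries, the library labelled cKO among them. The log2 fold of the G2/M sum, 0.93, was 0.75 with TMM, 0.72 with DESeq2 factors, 0.74 with each gene counted once per cell and 1.76 without *Hmgb2* and *Smc4*. The 11 called members became 7 when CPM was averaged over cells, 18 without a level limit, 2 with 50 CPM and 4 with a mean of 10 CPM over the libraries. For these settings the number of members that could be called and the share of all genes called are not given here. Their counts thus cannot be set against the 11. Without control 1 the called members were 19 of 26, beside 15% of all genes, and without control 2 they were 14 of 28, beside 16%. The difference in cells with 3 or more members, 4.73 percentage points, was 5.48 with 300 to 4000 genes and under 5% mitochondrial counts, 8.32 at 2000 counts, 1.34 at 200 genes and 9.61 for 2 or more members. The mean log2 ratio of the G2/M sum in *Krt14*-high cells, 0.63, was 0.27 with each gene counted once per cell and 0.85 without *Hmgb2* and *Smc4*. Of 480 values of the log2 folds of all members under the alternatives, 465 kept their sign. The called members had been chosen as above both controls, so their sign was largely set beforehand. Of their 132 values 131 stayed above 0, and the log2 fold of *Uhrf1* turned to -0.23 when CPM was averaged over cells. The cause of these shifts was not tested. The settings without *Hmgb2* and *Smc4*, without MHC class II cells, without the highest cell and with a mean of 10 CPM were chosen after seeing the data. Depth limits the low genes: 1 count is 0.0532, 0.0349 and 0.0323 CPM, and 12 members never reached 10 CPM.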

Other observations

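Markers of other cell types were set beside the cell cycle genes as summed levels, with the number of their genes at 10 CPM that lay over 2-fold above or below both controls, beside 7.97% and 1.44% of all genes. The inner root sheath list had 0.745, 5.92 and 242.2 CPM in control 1, control 2 and the library labelled cKO, with 4 of 4 genes above. As its sums in the controls were under 10 CPM, its genes could reach 10 CPM in the library labelled cKO alone. Those 4 genes thus had to be highest there. The hair matrix and shaft list had 20.5, 38.5 and 106.5 CPM, with 3 of 5 above. The antigen-presenting list had 397.6, 484.1 and 574.8 CPM, with 0 of 6 genes at 10 CPM over 2-fold from both controls. The T cell list had 175.1, 102.3 and 217.1 CPM, with 1 of 5 above. The erythroid list had 105.6, 463.7 and 62.7 CPM, with 3 of 4 below, and the list of fibroblasts, endothelial cells and melanocytes had 16.6, 5.47 and 42.7 CPM, with 1 of 1 above. The differentiated epidermis list had 118193, 131103 and 89228 CPM, with 0 of 10 genes over 2-fold from both controls. The part of these lists in the levels of the cell cycle genes was not tested.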
